A study of Homo sapiens with 12 samples.

Results

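Antibody genes were followed in cells that carry the label MM1S, a line from human multiple myeloma, over 5 days of NGI-1. The set held 10 genes: the light-chain constant regions IGKC, IGLC2 and IGLC3, the lambda-locus gene IGLL5, the heavy-chain constant regions IGHA1, IGHG1, IGHG3 and IGHM, and the assembly partners JCHAIN and MZB1. They were chosen by symbol, with earlier results of these data known, and make up 10 of the 59276 rows of the deposited table. NGI-1 is a small molecule that inhibits the oligosaccharyltransferase (OST) complex, the enzyme that attaches N-linked glycans to proteins in the endoplasmic reticulum (ER). Total RNA was sequenced from 3 libraries at day 0 and from 3 libraries at each of days 2, 3 and 5 of NGI-1, given at 10 μM. The labels name NGI-1 as the treatment of the day 0 libraries too, but the study calls these cells untreated, and the name day 0 is used here. All groups are the same unmodified line, no untreated library of a later day was analysed here, and the 3 treated groups share the day 0 libraries.

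An antibody is built from 2 identical heavy chains and 2 identical light chains, and each plasma cell makes 1 kind of light chain, kappa or lambda. The variable part of each chain is written by a rearranged V segment, and the constant part by a C gene, which for the heavy chain sets the class: IGHM for IgM, IGHG1 and IGHG3 for IgG, IGHA1 for IgA. JCHAIN, the joining chain, links IgA and IgM units into polymers. MZB1 is an ER protein that helps the chaperones GRP94 and BiP to fold and assemble antibody chains. The heavy chain is an N-glycoprotein, and myeloma cells commonly devote a large share of their RNA to the chains of 1 antibody.

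The rows of the lambda locus can be told apart only where their sequences differ, so the starts of their constant regions are shown from GENCODE release 29 on GRCh38, 5′ to 3′ on the coding strand. Capitals mark the bases that differ from IGLC1.
IGLC1 (chr22:22895375-22895494, plus strand): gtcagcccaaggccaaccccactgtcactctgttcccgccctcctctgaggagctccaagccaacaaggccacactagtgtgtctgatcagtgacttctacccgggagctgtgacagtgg
IGLC2 (chr22:22900976-22901095, plus strand): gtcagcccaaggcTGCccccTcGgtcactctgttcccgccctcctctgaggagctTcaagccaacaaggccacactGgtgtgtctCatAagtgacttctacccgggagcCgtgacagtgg
IGLC3 (chr22:22906342-22906461, plus strand): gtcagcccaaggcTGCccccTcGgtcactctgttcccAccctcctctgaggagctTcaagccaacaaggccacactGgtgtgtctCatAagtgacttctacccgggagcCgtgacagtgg
Over these 120 bases, IGLC2 differed from IGLC1 at 10 positions and IGLC3 at 11. The IGLL5 gene (chr22:22887780-22896107) contains the whole of IGLC1, and all 430 of the 31-base words of the IGLC1 transcript, 100%, were also found in IGLL5. Reads from the IGLC1 constant region therefore cannot be assigned by sequence to either row, and how the reads were divided between them is uncertain. IGLC2 and IGLC3 shared 71.3% of their 31-base words, and IGHA1 and IGHA2 shared 47.1%, so the split within these pairs is uncertain as well.

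The kappa constant region has a single copy and starts as follows.
IGKC (chr2:88857564-88857683, minus strand): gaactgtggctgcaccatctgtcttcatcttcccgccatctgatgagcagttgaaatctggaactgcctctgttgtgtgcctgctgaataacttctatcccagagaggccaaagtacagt
The segment rows that carried the antibody signal are shown next, since they are the only view of the variable part that these data give. For the kappa V segments, capitals mark differences from IGKV3-15.
IGKV3-15 (chr2:89085373-89085472, minus strand): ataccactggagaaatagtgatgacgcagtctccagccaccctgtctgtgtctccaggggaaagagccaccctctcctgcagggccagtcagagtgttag
IGKV3-7 (chr2:88978667-88978766, minus strand): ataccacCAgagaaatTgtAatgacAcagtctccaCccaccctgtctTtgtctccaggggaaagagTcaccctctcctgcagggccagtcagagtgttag
IGKV3-7 differed at 8 of these 100 positions. The duplicate gene IGKV3D-15 (chr2:90115105-90115204, plus strand) was identical to IGKV3-15 over the same stretch. For the heavy V segments, capitals mark differences from IGHV3-43.
IGHV3-43 (chr14:106470452-106470571, minus strand): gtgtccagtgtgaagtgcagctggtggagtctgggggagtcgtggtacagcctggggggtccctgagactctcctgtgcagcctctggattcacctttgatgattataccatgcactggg
IGHV3-20 (chr14:106211123-106211242, minus strand): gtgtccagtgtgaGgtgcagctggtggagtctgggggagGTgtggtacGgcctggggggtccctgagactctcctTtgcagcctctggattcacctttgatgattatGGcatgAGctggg
IGHV3-20 differed from IGHV3-43 at 9 of 120 positions. These are germline sequences of the reference genome, and no sequence of the cells themselves was read.

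The deposited values are the log2 of TPM plus 1. TPM (a transcript abundance scaled to a fixed total) is a length-corrected share of the RNA sequenced, so levels can be compared between genes, and a fall in TPM is a fall in share. Tests with limma covered the 11939 features that reached 1 TPM in 3 libraries or more, and a gene was called when the log2 fold change passed 0.5 in either direction with a Benjamini-Hochberg adjusted p under 0.05. TPM keeps no read counts, so the counting error is unknown, although each library had over 60 M read pairs by its label. Nothing in the labels says that the 3 libraries of a day came from separate cultures. The p-values set group differences against the spread between libraries, pooled over all groups, and this spread may be technical. Pearson's r between libraries of the same day lay between 0.992 and 0.996 over 12 pairs, and no library repeated another. The share of TPM taken by 123 ribosomal protein and mitochondrial features was 38.6% at day 0, 44.7% at day 2, 55.7% at day 3 and 62.6% at day 5. Over all tested features the median log2 fold change against day 0 was -0.18 at day 2, -0.73 at day 3 and -0.99 at day 5, so each value is also given after rescaling, in which every library was divided by 1 factor that brought 5433 features averaging 10 TPM or more to a common median.

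The cells carried the identity of plasma cells. Of 8 plasma cell markers 7 reached 1 TPM, among them SDC1 (CD138) with a mean of 496 TPM and TNFRSF17 (BCMA) with 577 TPM at day 0, and their summed TPM lay between 2888 and 3578 in all libraries. The sum does not show the course of single markers, and XBP1, which is among them, was lower by day 5, as given below. CD27 was at 0 in all but 1 library. No mature B cell or myeloid marker reached 1 TPM, and the summed B cell markers stayed at or below 0.64 TPM. Of the T and NK cell markers 1 of 5 reached 1 TPM (CD3E, 2.75 to 7.22 TPM), of the erythroid markers 1 of 4 and of the stromal markers 1 of 5 (PECAM1, 1.25 to 8.09 TPM).

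The light-chain class went against the label. MM1S is known as a line that makes IgA with a lambda light chain and that expresses MAF from a translocation. In these libraries IGKC had 7071 to 27555 TPM, whereas IGLC2 had 0.945 to 3.71 TPM, and IGLC3 did not exceed 0.793 TPM and was listed at 0 in 7 of 12 libraries. IGHA1 stayed between 1.80 and 5.63 TPM. Every other heavy constant row was lower still or at 0, so the heavy-chain class cannot be read from these rows. MAF had a mean of 8.89 TPM at day 0, and FGFR3, a receptor tyrosine kinase that some other myeloma cells express from a different translocation, had 284 TPM. Both were looked up after the light chains had been seen. The groups are therefore called cells labelled MM1S, and the cause was not tested.

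IGKC was the most abundant of all 59276 rows at day 0 and fell late. Its level was 26953, 23747 and 25082 TPM in the 3 day 0 libraries, 23701, 27555 and 24511 TPM at day 2, 14394, 17021 and 13969 TPM at day 3, and 7071, 8239 and 10131 TPM at day 5. Days 0 and 2 overlapped, whereas all day 3 libraries lay below both and all day 5 libraries below day 3. In rank IGKC went from place 1 to place 3, 9 and 31. The log2 fold change against day 0 was -0.0014 at day 2 (95% interval -0.24 to 0.24, limma adjusted p = 0.993), -0.74 ± 0.11 (SE) at day 3 (adjusted p = 3.81e-05) and -1.59 ± 0.11 (SE) at day 5 (adjusted p = 1.51e-08), the last a level 3.01-fold below day 0 on the log2(TPM + 1) scale. After rescaling the day 3 difference turned to 0.12 (adjusted p = 0.294), and the day 5 difference shrank to -0.36 (adjusted p = 0.00606), which no longer passed the size threshold. The median tested feature stood at -0.73 and -0.99 on these days as deposited, so at day 3 IGKC lay close to it and at day 5 below it. With TPM taken over a total without ribosomal protein and mitochondrial features, the log2 fold change was -0.27 at day 3, inside the size threshold, and -0.87 at day 5. In bulk RNA, fewer cells that express a gene and less of its RNA per cell cannot be told apart.

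The V segment IGKV3-15 tracked IGKC. It had a mean of 25143 ± 2666 TPM (SD, n = 3) at day 0, 26933 ± 2167 TPM at day 2, 15141 ± 1738 TPM at day 3 and 8504 ± 1624 TPM at day 5. The log2 ratio of IGKV3-15 to IGKC within a library stayed between -0.07 and 0.15 in all 12 libraries, so the variable and the constant part of the kappa chain kept nearly the same level. Of 5429 tested features averaging 10 TPM or more, with the chosen genes left out, IGKV3-15 was the most like IGKC over the 12 libraries (Pearson's r = 0.997), followed by SMG8 (0.993) and SMOC1 (0.993), as a description of libraries that share their time course. IGKV3-7 lay more than 4 log2 units below IGKV3-15, at a log2 ratio of -4.54 at day 0 and -4.73 at day 5. It shared 19.8% of its 31-base words with IGKV3-15, so how much of the IGKV3-7 row is RNA of its own is uncertain and was not tested. Its TPM went from 1089 ± 176 at day 0 to 994 ± 35.5 at day 2, 654 ± 74.6 at day 3 and 321 ± 65.2 at day 5, and its day 5 fall held after rescaling (log2 fold change -1.76 and -0.54, adjusted p = 4.47e-08 and 0.00065). IGKV3D-15, the duplicate of IGKV3-15, had means of 6.96 to 18.0 TPM.

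**Figure D1:**
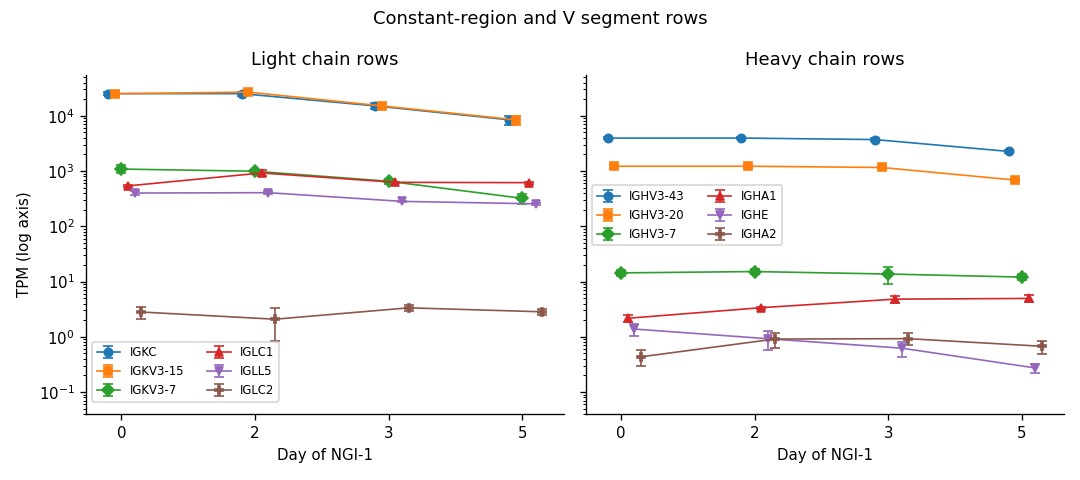
Mean TPM (log axis, error bars SD of 3 libraries) by day of NGI-1 for light-chain rows on the left and heavy-chain rows on the right. IGKC and IGKV3-15 overlie each other from a mean of 25260.4 TPM at day 0 to 8480.4 TPM at day 5, and the heavy V segments IGHV3-43 and IGHV3-20 stand far above every heavy constant row.

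IGLL5 carried most of the lambda-locus signal among the chosen genes and was the only lambda row called lower at day 5. It had 438, 363 and 401 TPM at day 0, 402, 433 and 385 TPM at day 2, 274, 289 and 286 TPM at day 3, and 247, 254 and 266 TPM at day 5. Days 0 and 2 overlapped, and all libraries of days 3 and 5 lay below both. The log2 fold change was 0.02 at day 2, -0.50 ± 0.08 (SE) at day 3, just inside the size threshold (adjusted p = 5.06e-05), and -0.64 ± 0.08 (SE) at day 5 (adjusted p = 3.04e-06), but after rescaling it was 0.26, 0.37 and 0.58, and the day 5 value was called higher (adjusted p = 8.65e-05). The direction of IGLL5 thus depends on the scaling.

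IGLC1, which shares its whole transcript with IGLL5, had 540 ± 28.6 TPM at day 0, 925 ± 123 TPM at day 2, 626 ± 4.66 TPM at day 3 and 617 ± 30.2 TPM at day 5. It was called higher at day 2 (log2 fold change 0.77, adjusted p = 1.01e-05) and not at days 3 and 5 (0.22 and 0.19), while rescaling gave 1.002, 1.08 and 1.42, all called. The log2 ratio of IGLC1 to IGLL5 within a library was 0.33 to 0.48 at day 0 and 1.08 to 1.35 in the 9 treated libraries. When the IGLC1 and IGLL5 values were added to 1 row, the log2 fold change was 0.50 (just inside the size threshold), -0.05 and -0.11 at days 2, 3 and 5. After rescaling it was 0.73, 0.82 and 1.12. TPM is corrected for length, and IGLC1 has 430 31-base words against 1358 for IGLL5. The summed row thus still depends on how the shared reads were divided. The fall of IGLL5 at day 5 was not seen in the summed row, which cannot settle whether the RNA itself fell.

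IGLC2 was low throughout. It had 2.90, 2.09 and 3.44 TPM at day 0, 1.89, 3.42 and 0.945 TPM at day 2, 3.71, 3.44 and 2.89 TPM at day 3, and 3.15, 2.92 and 2.44 TPM at day 5. The libraries of every pair of days overlapped, and no comparison with day 0 was called (log2 fold changes -0.37, 0.20 and 0.02, intervals -0.88 to 0.14, -0.31 to 0.71 and -0.49 to 0.53). After rescaling it was called higher at day 3 (0.83, adjusted p = 0.00691) and day 5 (0.93, adjusted p = 0.00295). Its nearest features by level over the 12 libraries were RPAIN (Pearson's r = 0.71), LAMTOR4 (0.674) and YAE1 (0.646). IGLC3 reached 0.456 TPM in 1 day 0 library, was listed at 0 in all day 2 libraries and had 0.145, 0.378 and 0.793 TPM at day 5, and it was not tested. Of the 76 lambda V segment rows, 72 were at 0 in all libraries, and their summed TPM was 1.11 at day 0 and 1.24 at day 5, against 26260 and 8839 for the 101 kappa V segment rows.

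Taking IGLC2, IGLC3 and IGLL5 as a percent of the light-chain genes chosen, the lambda locus held 1.57% ± 0.0516 (SD, n = 3) at day 0, 1.60% ± 0.0712 at day 2, 1.87% ± 0.17 at day 3 and 3.01% ± 0.412 at day 5. With IGLC1 and the other lambda constant rows included, the values were 3.60%, 5.01%, 5.73% and 9.51%. These shares are ratios within a library and do not depend on the scaling. They do depend on how reads were divided between IGLC1 and IGLL5, which is uncertain. As deposited, the log2 fold change at day 5 was -1.59 for IGKC and -0.64 for IGLL5, so the first share rose while both fell. All 3 day 5 libraries lay above every library of days 0, 2 and 3 in both measures.

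**Figure D2:**
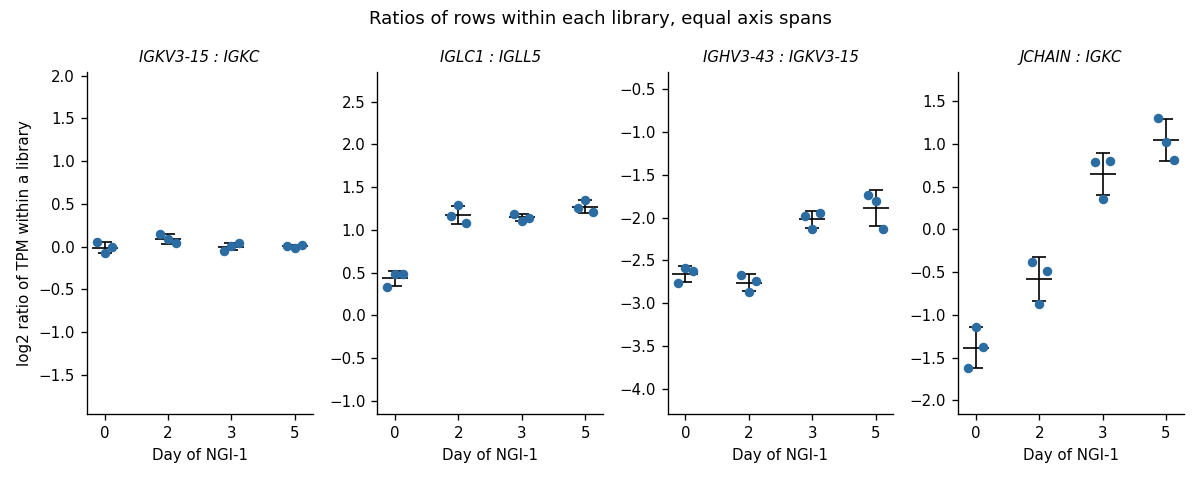
Log2 ratio of the TPM of a pair of rows within each library (points, 3 per day of NGI-1) with the mean and SD, on axes of equal span. IGKV3-15 to IGKC stayed near 0, IGLC1 to IGLL5 was higher in the 9 treated libraries than at day 0, and JCHAIN to IGKC went from -1.38 at day 0 to 1.05 at day 5.

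The heavy-chain constant regions were nearly silent in this table. IGHG1, IGHG3 and IGHM were listed at 0 in all 12 libraries and were not tested. IGHA1 had 2.27, 1.80 and 2.42 TPM at day 0, 3.49, 3.37 and 3.25 TPM at day 2, 4.57, 5.60 and 4.25 TPM at day 3, and 4.23, 4.99 and 5.63 TPM at day 5. All treated libraries lay above all day 0 libraries, and days 3 and 5 overlapped. The log2 fold change was 0.47 ± 0.14 (SE) at day 2, inside the size threshold (adjusted p = 0.013), 0.87 ± 0.14 (SE) at day 3 (adjusted p = 5e-05) and 0.91 ± 0.14 (SE) at day 5 (adjusted p = 2.63e-05), and after rescaling it was 0.58, 1.48 and 1.83, all called higher. At these levels the added 1 in log2(TPM + 1) makes the fold change smaller than that of the TPM itself. The features most like IGHA1 over the 12 libraries were the small nuclear RNA RN7SK (Pearson's r = 0.967), OXLD1 (0.960) and FIS1 (0.956).

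Heavy V segments were abundant all the same. IGHV3-43 had 3960 ± 187 TPM at day 0, 3964 ± 179.7 TPM at day 2, 3722 ± 194 TPM at day 3 and 2272 ± 114 TPM at day 5. IGHV3-20 had 1224 ± 84.9, 1226 ± 92.3, 1163 ± 54.3 and 688 ± 25.2 TPM at the same days, and the log2 ratio of IGHV3-20 to IGHV3-43 averaged between -1.72 and -1.68 on every day. IGHV3-20 shared 9.35% of its 31-base words with IGHV3-43, and whether its row holds RNA of its own was not tested. Both were called lower at day 5 (log2 fold changes -0.80 and -0.83, adjusted p = 4.06e-08 and 1.24e-07) and not at day 3 (-0.09 and -0.07), while after rescaling both were called higher at day 3 (0.78 and 0.79) and stood at 0.42 and 0.40 at day 5, inside the size threshold. IGHV3-7 had means of 12.1 to 15.2 TPM and was not called against day 0 on the deposited scale. The IGHV rows summed to 5198 ± 265 TPM at day 0 and 2972 ± 138 TPM at day 5, whereas all heavy constant rows, IGHA2, IGHE and the rows at 0 included, summed to 4.02 ± 0.742 TPM and 5.93 ± 0.711 TPM. Messenger RNA of a heavy chain carries both parts, and the cause of this gap was not tested. Diversity segments of the heavy chain (30 rows), joining segments of the heavy chain (9 rows) and joining segments of the kappa chain (5 rows) were at 0 in every library.

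The heavy and the kappa V segments did not keep a fixed ratio. The log2 ratio of IGHV3-43 to IGKV3-15 was -2.66 ± 0.0925 (SD, n = 3) at day 0, -2.76 ± 0.0994 at day 2, -2.02 ± 0.102 at day 3 and -1.89 ± 0.211 at day 5. All libraries of days 3 and 5 lay above all libraries of days 0 and 2. Over the chosen constant regions, the log2 ratio of heavy to light chains was -13.5 ± 0.174 at day 0 and -10.8 ± 0.0629 at day 5. The heavy sum here is IGHA1 alone, at 1.80 to 5.63 TPM, because IGHG1, IGHG3 and IGHM were at 0 in all 12 libraries. This ratio therefore does not measure the balance of heavy and light chains. The constant-region rows as a whole took 2.62% ± 0.167 of TPM at day 0, 2.66% ± 0.216 at day 2, 1.60% ± 0.165 at day 3 and 0.936% ± 0.157 at day 5.

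JCHAIN was called higher on every day of NGI-1 and on both scales. Its level was 8732, 10731 and 9629.5 TPM at day 0, 18203, 15062 and 17481 TPM at day 2, 24865, 21853 and 24249 TPM at day 3, and 17399, 16774 and 17845 TPM at day 5. The day 3 libraries lay above all others, and no treated library overlapped with day 0. The log2 fold change was 0.80 ± 0.08 (SE) at day 2 (adjusted p = 5.74e-06), 1.29 ± 0.08 (SE) at day 3 (adjusted p = 1.34e-08) and 0.84 ± 0.08 (SE) at day 5 (adjusted p = 4.13e-07), and after rescaling it was 1.04, 2.16 and 2.07, all called higher. Between neighbouring days the differences of 0.49 from day 2 to day 3 and -0.45 from day 3 to day 5 had adjusted p-values of 0.000204 and 0.00247 but stayed inside the size threshold. JCHAIN ranked 8 among all rows at day 0, 2 at day 3 and 7 at day 5. Its ratio to IGKC within a library was 0.387 ± 0.064 (SD, n = 3) at day 0, 0.676 ± 0.115 at day 2, 1.58 ± 0.259 at day 3 and 2.09 ± 0.352 at day 5, and the 4 days did not overlap. The features most like it were LMBRD1 (Pearson's r = 0.984), CIR1 (0.980) and GPR89B (0.970).

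MZB1 rose at day 2 and was lower than day 0 by day 5. It had 257, 236 and 271 TPM at day 0, 459, 444 and 416 TPM at day 2, 195, 220.4 and 194 TPM at day 3, and 114, 118 and 133 TPM at day 5. The 4 days did not overlap. The log2 fold change was 0.79 ± 0.08 (SE) at day 2 (adjusted p = 7.88e-06), -0.33 ± 0.08 (SE) at day 3, inside the size threshold (adjusted p = 0.00297), and -1.06 ± 0.08 (SE) at day 5 (adjusted p = 4.67e-08). After rescaling it was 1.02 at day 2, 0.54 at day 3, where it was called higher, and 0.16 at day 5 (adjusted p = 0.0677), so only the day 2 rise kept its call on both scales. From day 2 to day 3 MZB1 fell by 1.11 on the log2 scale (adjusted p = 4.45e-07), and after rescaling by 0.48. Its closest features were DERL3 (Pearson's r = 0.995), SSR4 (0.989) and LILRB4 (0.985), the first a factor of ER-associated degradation and the second a subunit of the translocon-associated complex. DERL3 went from 75.5 TPM at day 0 to 185 TPM at day 2, 56.6 TPM at day 3 and 26.9 TPM at day 5.

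**Figure D3:**
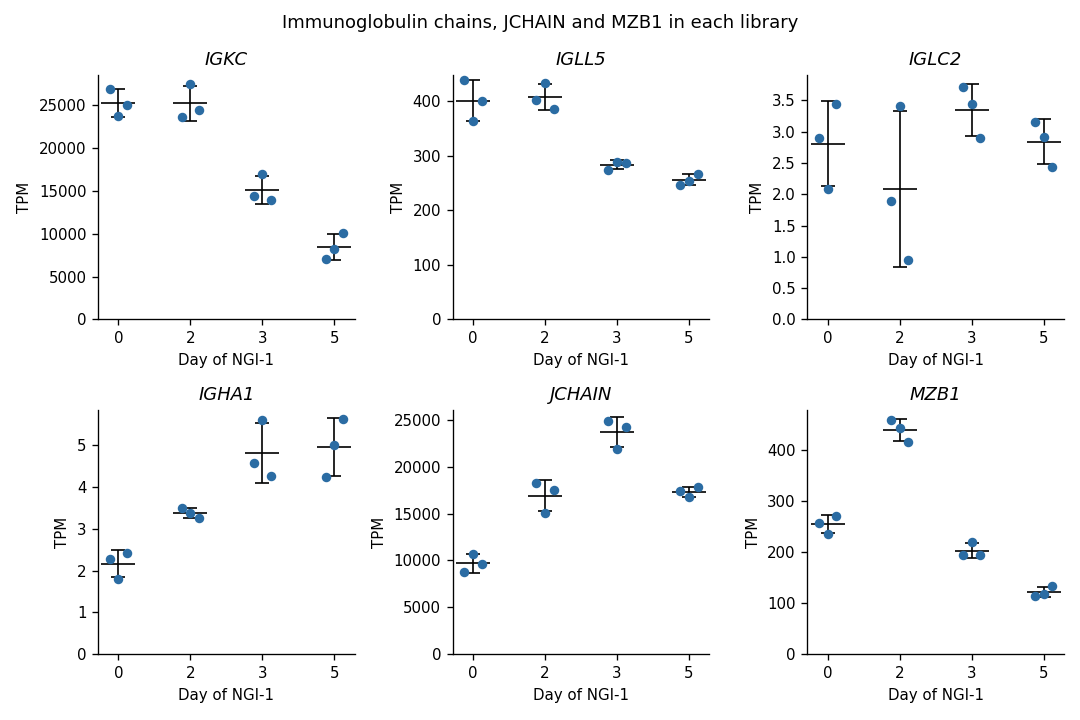
TPM in each library (points, 3 per day of NGI-1) with the mean and SD for the 6 tested genes, each on its own axis from 0. IGKC stood at 23701 TPM or more until day 2 and at 10131 TPM or less by day 5, JCHAIN peaked at day 3 and MZB1 at day 2. IGLC3, IGHG1, IGHG3 and IGHM were not drawn because they were at or near 0.

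Across the 10 genes, 6 passed the filter on low values, and the following counts refer to them. At day 2, 2 of 6 were called higher (JCHAIN and MZB1) and 0 lower, beside 8.03% of all tested features called higher and 23.2% lower. At day 3, IGHA1 (1.80 to 5.63 TPM over all libraries, near the filter) and JCHAIN were higher and IGKC lower, beside 7.59% higher and 61.5% lower. At day 5, the same 2 were higher and IGKC, IGLL5 and MZB1 lower, beside 7.73% higher and 69.8% lower. A lower call at days 3 and 5 was thus the common state of a tested feature. From day 2 to day 3, IGKC, IGLL5 and MZB1 were lower and IGLC2 higher (0.57, adjusted p = 0.043, overlapping libraries), beside 55.5% lower and 3.22% higher. The IGLC2 call was lost when any 1 of 7 libraries was left out, 6 of them of days 0, 2 and 3, and without replicate 3 of day 2 the log2 fold change was 0.28. From day 3 to day 5, IGKC and MZB1 were lower (-0.85 and -0.74, adjusted p = 0.000293 and 0.000125) and none of the 6 higher, beside 13.1% lower and 0.67% higher.

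After rescaling, none of the 6 was called lower in any of the 5 comparisons, beside 11.4%, 24.2% and 26.9% of all features at days 2, 3 and 5 against day 0, 13.6% from day 2 to day 3 and 2.03% from day 3 to day 5. At day 2 IGHA1, JCHAIN and MZB1 were higher, beside 12.9% of all. At day 3 IGLC2, IGHA1, JCHAIN and MZB1 were higher, beside 23.9%. At day 5 IGLC2, IGLL5, IGHA1 and JCHAIN were higher, beside 27.5%. From day 2 to day 3 IGLC2, IGHA1 and JCHAIN were higher, beside 14.3%, and from day 3 to day 5 none, beside 4.43%. The median log2 fold change of the 6 at days 2, 3 and 5 was 0.25, -0.06 and -0.31 as deposited and 0.42, 0.68 and 0.75 rescaled, beside -0.18, -0.73 and -0.99 and 0.01, -0.03 and -0.02 for all features.

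**Figure D4:**
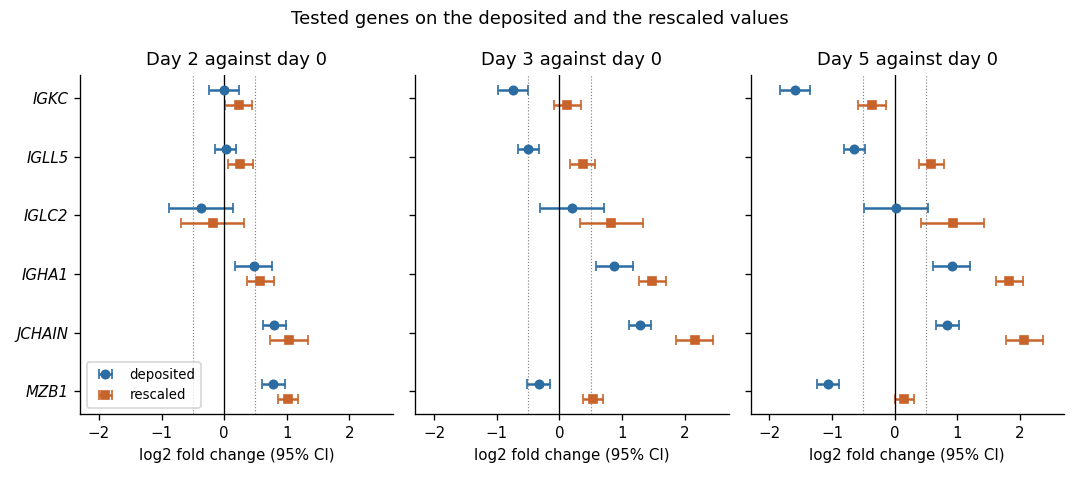
Log2 fold change against day 0 with its 95% interval for the 6 tested genes at days 2, 3 and 5, on the deposited values (circles) and after rescaling (squares). Dotted lines mark the size threshold of 0.5. JCHAIN lay above it at every day on both scales, whereas IGKC at days 2 and 3, IGLL5 at days 3 and 5 and MZB1 at days 3 and 5 changed sign with the scale.

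Antibody chains fold in the ER with chaperones and disulfide isomerases. Of 24 listed folding genes, all tested, 8 were called higher and 0 lower at day 2, 1 higher and 18 lower at day 3, and 1 higher and 19 lower at day 5, and the median log2 fold changes were 0.36, -0.72 and -1.22. On the same 3 days 8.03%, 7.59% and 7.73% of all tested features were higher and 23.2%, 61.5% and 69.8% lower, so that the lower calls of days 3 and 5 were again the common state. After rescaling the counts were 16 higher and 0 lower, 5 higher and 3 lower, and 5 higher and 4 lower, beside 12.9% higher and 11.4% lower, 23.9% and 24.2%, and 27.5% and 26.9% of all features. DNAJB9, a co-chaperone of BiP that binds unassembled antibody chains, was the 1 gene higher at day 5: it had 57.4 ± 4.22 TPM at day 0, 131 ± 10.6 at day 2, 89.3 ± 8.01 at day 3 and 90.0 ± 16.7 at day 5 (log2 fold change 1.18, 0.63 and 0.63, and 1.40, 1.48 and 1.83 rescaled). CALR (calreticulin), a chaperone that binds N-glycans, went from 956 ± 15.8 TPM to 254 ± 71.3 TPM at day 5 (-1.95, and -0.72 rescaled, both called). SDF2L1, a partner of ER co-chaperones, fell by 1.97 at day 5 and by 0.77 after rescaling. The most abundant members were the disulfide isomerase TXNDC5, with 1942 ± 11.6 TPM at day 0 and 1461 ± 260 TPM at day 5 (-0.43, and 0.80 rescaled), and the prolyl isomerase PPIB, with 947 ± 21.0 and 411 ± 83.2 TPM (-1.22, and 0.0031 rescaled, not called).

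Of 20 listed genes of antibody entry into and export from the ER, 2 were higher and 0 lower at day 2, 1 higher and 11 lower at day 3, and 1 higher and 12 lower at day 5, and after rescaling 5 and 0, 9 and 6, and 9 and 6. Of all features 8.03%, 7.59% and 7.73% were higher and 23.2%, 61.5% and 69.8% lower on days 2, 3 and 5 as deposited. After rescaling 12.9%, 23.9% and 27.5% were higher and 11.4%, 24.2% and 26.9% lower. The signal peptidase subunit SEC11C had 874 ± 41.4 TPM at day 0, 1420 ± 99.6 at day 2 and 1201 ± 39.8 at day 5 (0.70 at day 2, and 0.46 at day 5, inside the threshold). SEC61G, a small subunit of the translocation channel, had 1463 ± 82.8 TPM at day 0 and 2389 ± 157 TPM at day 5 (0.71, and 1.93 rescaled, both called). SSR1, a subunit of the translocon-associated complex, and SEC24D, a coat protein of ER export vesicles, fell by 2.19 and 2.14 at day 5, and by 0.97 and 1.01 after rescaling. SEC61G and SSR1 were named for the largest rise and the largest fall of this list at day 5, so their opposite directions follow from that choice.

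Of 18 listed regulators of antibody genes and of their messenger RNA, 13 were tested. On the deposited scale 2 were lower at day 2, 10 at day 3 and 12 at day 5, and none was higher, while after rescaling 3 were higher and 1 lower, 2 and 2, and 3 and 3. The lower share of all features was 23.2%, 61.5% and 69.8% as deposited and 11.4%, 24.2% and 26.9% after rescaling. The higher share was 8.03%, 7.59% and 7.73% as deposited and 12.9%, 23.9% and 27.5% after rescaling. CSTF2, a 3′ end processing factor involved in the switch to the secreted heavy chain, went from 14.2 ± 0.592 TPM to 2.19 ± 0.101 TPM at day 5 (-2.25, and -1.24 rescaled). XBP1, the secretory regulator of plasma cells, went from 1547 ± 83.5 TPM to 366 ± 74.7 TPM (-2.09, and -0.87 rescaled). TCF3, an activator of immunoglobulin enhancers, fell by 1.39, and its rescaled value of -0.17 was not called. Of 8 receptor and surrogate chain partners only CD79B, a signalling chain of the B cell receptor, passed the filter, with 10.6 ± 1.51 TPM at day 0 and 8.43 ± 1.37 TPM at day 5, not called (-0.30), and higher after rescaling (0.81). VPREB3 did not exceed 0.733 TPM.

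**Figure D5:**
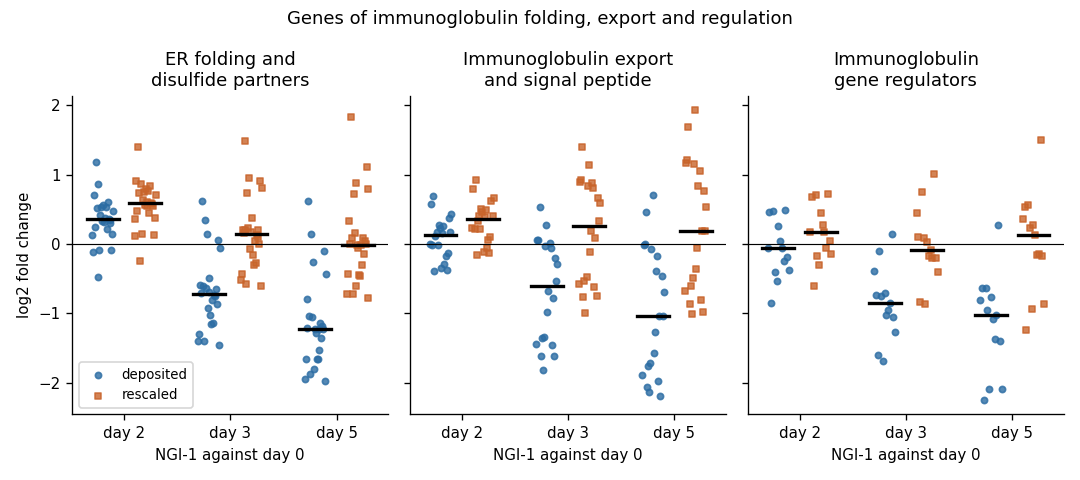
Log2 fold change against day 0 of each tested gene of 3 listed groups at days 2, 3 and 5, as deposited (circles) and after rescaling (squares), with the median as a bar. The median of the folding genes went from 0.36 at day 2 to -1.22 at day 5 as deposited and from 0.59 to -0.01 after rescaling.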

How the data were processed

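Total RNA of 12 libraries of cells labelled MM1S was sequenced, 3 per time point. The authors deposited log2 values of TPM plus 1 for 59276 features listed by gene symbol. The submitters' processing notes name FastQC, Trimmomatic, STAR, Salmon and the build hg38, and versions, options and annotation are not given in the sources used here. Per the labels, 200 ng of RNA and more than 60 M read pairs were used per library, and between 18164 and 20407 features per library were above 0. Salmon-type estimates divide reads among near-identical copies and rest on short lengths for V segments, which limits how far such rows can be compared.

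Limma 3.58.1 in R 4.3.3 was fitted to the deposited values of the features that reached 1 TPM in 3 libraries or more, with a mean for each group and a mean-variance trend in the moderated tests. Two-sided p-values were adjusted over 11939 features by the Benjamini-Hochberg method for each of 5 contrasts. The procedure was tested on simulated data. Ratios were taken on TPM within each library and not tested. Named were the 10 genes, other constant rows and segments with a mean TPM of at least 10 in a group (up to 12), in each further list up to 2 largest rises and 2 largest falls at day 5 among called genes and the 2 highest levels, and the 3 features most correlated with IGLC2, IGHA1, JCHAIN and MZB1. IGKC's nearest features, IGHA2, IGHE, the ratios of single rows, MAF and FGFR3, and the sum of IGLC1 and IGLL5 were added after the values were seen. The members and lists were chosen with earlier results of these data known. The settings varied were the filter (none, or 5 TPM), the pseudocount (0.1), the scaling (rescaled, or totals without the 20 most abundant features or without ribosomal protein and mitochondrial features), the groups fitted (2 alone), the trend (none), the size threshold (1) and the libraries (each left out once). Sequences and positions came from GENCODE release 29 on GRCh38. Figures were drawn with matplotlib 3.10.9.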

Additional observations from a re-analysis of the deposited data

Results flagged for a closer look

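For 4 of the 6 tested genes the level differed between neighbouring treated days, on the deposited scale and past the thresholds, by a test of the difference itself. Among all 11939 tested features, the contrast of day 3 with day 2 gave a lower call to 55.5% and a higher call to 3.22%. For day 5 with day 3 these shares were 13.1% and 0.67%. The day 3 falls of IGKC, MZB1 and IGLL5 listed here therefore went the way of most features. No untreated library of a later day was analysed, so exposure to NGI-1 and time in culture cannot be told apart. IGKC was lower at day 3 than at day 2 (log2 fold change -0.74 ± 0.11, SE, limma adjusted p = 8.49e-05) and lower again at day 5 than at day 3 (-0.85 ± 0.11, adjusted p = 0.000293). MZB1 was lower at day 3 than at day 2 (-1.11 ± 0.08, adjusted p = 4.45e-07) and lower at day 5 than at day 3 (-0.74 ± 0.08, adjusted p = 0.000125). IGLL5 was lower at day 3 than at day 2 (-0.52 ± 0.08, adjusted p = 7.49e-05). IGLC2 was higher at day 3 than at day 2 (0.57 ± 0.24, adjusted p = 0.043), at 0.945 to 3.71 TPM and with overlapping libraries. After rescaling the 5 falls were -0.11, -0.49, -0.48 and -0.38 for the IGKC and MZB1 differences in the order above and 0.11 for IGLL5, none of them called, and the IGLC2 difference was 1.01 and called. For MZB1 at day 3 against day 2, all 3 libraries moved from 416 TPM or more to 220.4 TPM or less.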

How the results depend on the processing

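No paired analysis was possible because the titles run from H1 to H12 and give the groups no shared replicate number. Over the single-gene log2 fold changes, 333 of the values without 1 library kept direction and call, 9 gained and 9 lost a call and 9 changed sign, and of the values under the other settings 191 kept both, 13 gained and 16 lost a call and 15 changed sign. Counts are of genes called among the chosen genes. With rescaling, the genes called lower were 0 in all 5 comparisons (1 at day 3, 3 at day 5, 3 from day 2 to day 3 and 2 from day 3 to day 5 as reported), and those called higher were 4 at days 3 and 5 (2 as reported) and 3 from day 2 to day 3 (1 as reported). The sign changed with rescaling for IGKC at day 2 (0.23) and day 3 (0.12), MZB1 at day 3 (0.54) and day 5 (0.16), IGLL5 at day 3 (0.37), day 5 (0.58), from day 2 to day 3 (0.11) and from day 3 to day 5 (0.21), and IGLC2 from day 3 to day 5 (0.10). With the total without ribosomal protein and mitochondrial features, the values that changed sign were IGLL5 at day 5 (0.073) and from day 3 to day 5 (0.097), IGKC at day 2 (0.15), MZB1 at day 3 (0.15) and IGLC2 from day 3 to day 5 (0.0052), and 0 genes were lower at day 3, 1 at day 5, 1 from day 2 to day 3 and 1 from day 3 to day 5, with 3 higher from day 2 to day 3. With the total without the 20 most abundant features, 2 of which are chosen genes, IGKC at day 2 changed sign (0.093), and 0 were lower at day 3 and 3 higher from day 2 to day 3. With a size threshold of 1, day 2 had 0 genes higher, day 3 had 0 lower and 1 higher, day 5 had 0 higher, the step from day 2 to day 3 had 1 lower and 0 higher, and that from day 3 to day 5 had 0 lower. With a TPM minimum of 5, which drops IGLC2 and IGHA1, 1 was higher at day 3, 1 at day 5 and 0 from day 2 to day 3. Without a filter, and with 2 groups alone, 0 were higher from day 2 to day 3. The constant-region rows held, on days 0, 2, 3 and 5, 4.27%, 4.80%, 3.62% and 2.50% of the total without ribosomal protein and mitochondrial features. Their sum was 3.36%, 3.64%, 2.45% and 1.50% of the size of the total without the 20 most abundant features. That total leaves out IGKC, which the sum keeps, so these values are not shares. In the same units the sum was 1.75, 2.08, 1.95 and 1.45 after rescaling. These are not shares either, because rescaled libraries no longer add up to a fixed total. Without 1 library, the genes called lower were 0 to 1 at day 2 and 1 to 2 at day 3, and the step from day 2 to day 3 had 0 to 1 called higher. The 9 sign changes without 1 library were of values near 0: IGKC at day 2 ranged from -0.066 to 0.046, IGLL5 at day 2 from -0.045 to 0.092, IGLC2 at day 5 from -0.12 to 0.14 and IGHA1 from day 3 to day 5 from -0.046 to 0.13, none of them called. The day 2 call was IGLC2 without replicate 2 of day 2 (-0.67), and the added day 3 call was IGLL5 without replicate 2 of day 0 (-0.57) or replicate 2 or 3 of day 3 (-0.51 and -0.50). Added to IGLC1, IGLL5 was no longer called at day 5 (-0.11). The sign changes of called values went with the change of denominator that each setting makes, and no other cause was tested. Depth cannot be read from TPM, so no detection limit was set for the rows at 0.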

Other observations

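FAM30A, a long non-coding RNA gene of the heavy-chain locus, was looked up after the heavy-chain rows had been seen. It had 69.2, 68.0 and 70.1 TPM at day 0, 119.5, 117 and 125 TPM at day 2, 123, 122 and 145 TPM at day 3, and 111, 109.6 and 103 TPM at day 5. All treated libraries lay above day 0, and the log2 fold changes of 0.79, 0.90 and 0.64 (limma adjusted p = 4.38e-06, 2.76e-07 and 4.59e-06) were called higher at all 3 days, as were the rescaled values of 1.02, 1.76 and 1.85. IGHE, the IgE constant region, went from 1.38 ± 0.335 TPM (SD, n = 3) at day 0 to 0.273 ± 0.0556 TPM at day 5 and was called lower as deposited (-0.90, adjusted p = 0.000134) but not after rescaling (-0.42). IGHA2 stayed between 0.271 and 1.16 TPM.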
